A study of Arabidopsis thaliana with 36 samples.

Results

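The set described here holds 10 loci of Arabidopsis thaliana that relay or answer mitochondrial stress, 10 of the 37336 loci in the count tables. They were taken by name, not by a measured value, but with earlier results of these data known. The models of each locus were summed. The 4 regulators are the NAC transcription factors ANAC017 (AT1G34190, chr1:12451405-12454542), ANAC013 (AT1G32870, chr1:11911631-11913947), ANAC032 (AT1G77450, chr1:29099839-29101759) and ANAC102 (AT5G63790, chr5:25526509-25528281). The 6 genes of the response are AOX1A (AT3G22370, chr3:7906521-7908746), NDB4 (AT2G20800, chr2:8953057-8955831), UPOX (AT2G21640, chr2:9254378-9255743), OM66 (AT3G50930, chr3:18929526-18932181), CYP81D8 (AT4G37370, chr4:17569740-17571743) and UGT74E2 (AT1G05680, chr1:1703002-1704838). Of these 10, 8 had enough counts to be tested, as had 10480 of all loci. ANAC013 and NDB4 had not.

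Whole seedlings, 12 days old, stood for 6 h in water with an agent that makes proteins misfold in the endoplasmic reticulum (ER), and their RNA was sequenced from the 3' end. The groups of wild type (WT) with an agent were WT Tm (tunicamycin, 5 µg/ml, which blocks N-glycosylation), WT DTT (dithiothreitol, 2 mM, a reductant) and WT AZC (L-azetidine-2-carboxylic acid, 5 mM, a proline analogue). The mutants, labelled as double knockouts, were bzip17/28, bzip28/60, bzip17/60 and s1p/s2p, each with Tm or with the solvent DMSO (mock), and the last group was WT mock. The labels name no alleles. S1P and S2P are Golgi proteases that cut the membrane-held factors bZIP17 and bZIP28 free, whereas active bZIP60 needs splicing of its mRNA by IRE1. Each of the 12 groups held 3 libraries. Whether repeats came from separate cultures is not stated in the labels, so the p-values cover no more than the spread among these libraries, possibly a technical one.

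Mitochondrial retrograde signalling is the route by which a disturbed respiratory chain changes the expression of nuclear genes. ANAC017 and ANAC013 are held in membranes by a C-terminal segment and are cut free, ANAC017 from the ER membrane, after which they enter the nucleus and bind the mitochondrial dysfunction motif in their target promoters. AOX1A encodes the alternative oxidase of the inner mitochondrial membrane, which takes electrons from ubiquinol past the cytochrome pathway, and NDB4 encodes an external NAD(P)H dehydrogenase that feeds the same pool. AOX1A is a widely used reporter of this signalling in Arabidopsis seedlings.

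The motif was searched as CTTG, any 5 bases and CAAG (the A form), or CTTG, any 5 bases and CACG (the C form), on both strands, from 1000 bases before to 50 bases after each annotated gene start. It was found at 5 of the 10 members, against 1267 of 27443 protein-coding promoters (4.62%). The members were named as genes of the pathway that works through this motif. The shares in this and the other windows are therefore no independent test. The matches are printed because they mark which members carry the element known to bind ANAC017 and ANAC013. Each line is 29 bases of the RefSeq TAIR10.1 genome, 5′ to 3′ along the strand of its gene, with the motif in capitals.
ANAC017 (C form, read on the opposite strand, chr1:12451287-12451315, gene on the + strand): acctctgtCGTGTCAGACAAGaatgttgg
AOX1A (A form, chr3:7906537-7906565, + strand): tcttccatCTTGCTCTCCAAGaaaaatct
AOX1A (C form, chr3:7906510-7906538, + strand): atctagctCTTGGCGACCACGcaagtatc
UPOX (A form, chr2:9254319-9254347, + strand): tttagtaaCTTGCTCTCCAAGgagatcta
CYP81D8 (A form, chr4:17571863-17571891, gene on the − strand): caaactttCTTGAGGAACAAGacttgact
UGT74E2 (C form, chr1:1704805-1704833, gene on the − strand): ccgcacatCTTGGTCGCCACGgaacatag

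The AOX1A and UPOX matches of the A form hold the same 13 bases. Counted from the gene start, with 1 as its first base and -1 as the last base before it, the motif stood at -110 to -98 in ANAC017, at -51 to -39 in UPOX and at -140 to -128 in CYP81D8. In AOX1A the C form stood at -3 to 10 and the A form at 25 to 37, and in UGT74E2 the C form stood at 14 to 26, so these 3 reach into the transcribed 5′ end. The bases printed for ANAC017 overlap the neighbouring gene AT1G34180, and those printed for CYP81D8 overlap AT4G37380. In a window of 250 bases before to 50 after the start, chosen after seeing the data, the same 5 members held the motif, against 1.42% of promoters. With only the 1000 bases before the start, 3 members held it, ANAC017, UPOX and CYP81D8, against 4.39%. The TGA factor core TGACG was found at 5 members, ANAC017, ANAC032, ANAC102, AOX1A and OM66, against 56.7% of promoters, and the ER stress response element (CCAAT, any 10 bases and CACG) at 0 of 10, against 1.53%. A match is a run of letters in the reference and not a measured binding site.

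**Figure D1:**
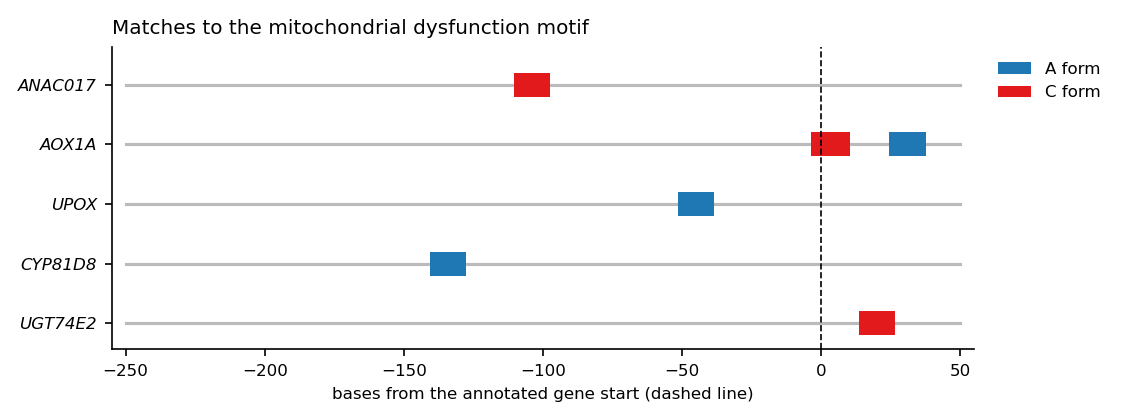
Positions of the mitochondrial dysfunction motif (blue bars, A form; red bars, C form) along 5 genes, in bases from the annotated gene start (dashed line). All 6 matches lie between -140 and 37.

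Libraries held 1278322 to 2810235 assigned counts (median 2011039), and the precision of low genes is set by this depth. The genes named by the genotypes checked the labels in part. BZIP17 had at most 3 counts per library in bzip17/28 and bzip17/60. BZIP28 had at most 1 count in bzip17/28, but 23 to 30 in bzip28/60 against 35 to 42 in WT mock. These are raw counts, and the bzip28/60 libraries were deeper (2069102 to 2557005 assigned counts, against 1559173 to 1884691 in WT mock). Whether the 3' reads left in bzip28/60 lie outside the disrupted part of the gene is not given in the sources used here. BZIP60 had 71 to 82 counts in bzip28/60 Tm and 66 to 91 in bzip17/60 Tm, against 1011 to 1186 in WT Tm. S1P and S2P had at most 1 count in any library, so the s1p/s2p label was not checked. The 3 WT Tm libraries differed more among themselves than those of the other groups, with a coefficient of variation beyond counting error of 28.2%, against 5.57 to 14.3% elsewhere. Of the markers of the labelled whole seedling, the 8 shoot genes summed to 22213 to 31472 CPM per library.

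Levels are given as CPM, counts scaled by the TMM-corrected size of each library. Values after ± are standard errors of a log2 fold change from the fit of all 36 libraries, with 3 per group. Their spread is shared across groups, so they can be too small for the more variable WT Tm. For ANAC102 in WT Tm against WT mock the standard error was 0.23, and 0.33 with only the libraries of that comparison fitted. Adjusted p-values are from edgeR's quasi-likelihood test with Benjamini-Hochberg adjustment over 10480 genes, with a threshold of 0.05. Genes said to have risen or fallen passed it.

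**Figure D2:**
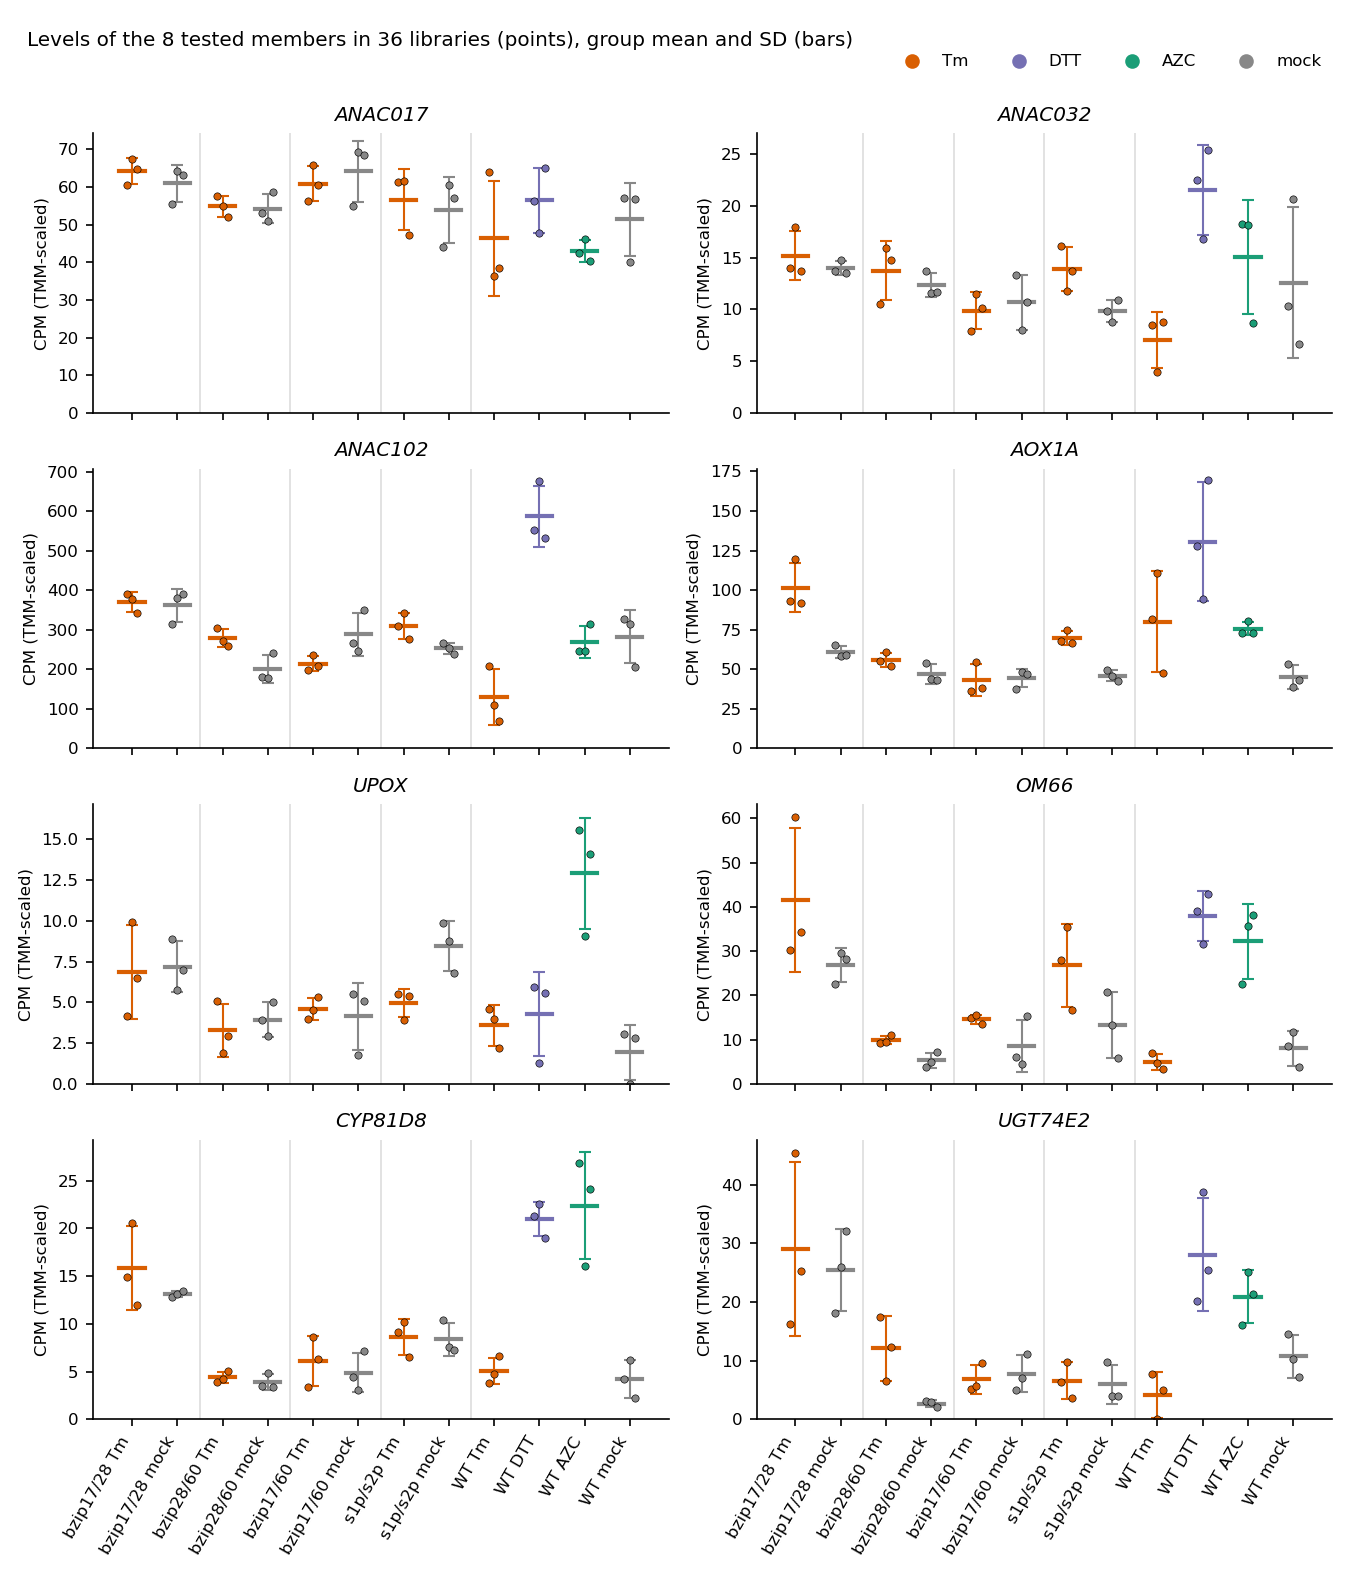
CPM of the 8 tested members (vertical axes, linear) in the 12 groups (horizontal axis), with a point per library, a thick line at the group mean and a bar of 1 SD. AOX1A and ANAC102 are highest in WT DTT, UPOX and CYP81D8 in WT AZC, and OM66 and UGT74E2 in bzip17/28 Tm, while ANAC017 stays between 43.0 and 64.3 CPM as group means.

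The regulator ANAC017 varied least of the tested members. Its group means ran between 43.0 CPM in WT AZC and 64.3 CPM in bzip17/28 Tm, a 1.5-fold range, and in the order of the means every group overlapped the next. It had 56.3, 47.8 and 65.1 CPM in WT DTT, against 57.2, 40.1 and 56.9 CPM in WT mock, and these overlap. It passed the test in 0 of 18 comparisons with edgeR, its lowest adjusted p being 0.14 for WT DTT against WT AZC (0.39 ± 0.18). DESeq2 also called it in 0. It passed once with a library left out, without WT Tm 1, at -0.59 (adjusted p = 0.0135) for WT Tm against WT DTT.

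DTT raised most of the tested members. In WT DTT 6 of the 8 tested members rose and 0 fell, while 8.93% of all tested genes rose. The median log2 fold change of the members was 1.23, against -0.02 over all tested genes, and all 8 values were positive. Among the regulators the ATAF-group factors ANAC102 and ANAC032 rose, and of the response genes AOX1A, OM66, CYP81D8 and UGT74E2 did.

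ANAC102, a NAC factor known from low-oxygen and chloroplast stress, had 552, 676 and 532 CPM in WT DTT, against 327, 314 and 205 CPM in WT mock. The groups did not overlap, and the change was 1.06 ± 0.22 (adjusted p = 0.000555). The files count the models of ANAC102 separately, AT5G63790.1 with 21115 counts over all libraries and AT5G63790.2 with 0. Whether reads that overlap both models were left uncounted is not stated in the labels. If so, all ANAC102 values here cover only reads unique to AT5G63790.1. ANAC032, its close relative, had 22.5, 16.8 and 25.4 CPM in WT DTT, against 10.3, 20.7 and 6.69 CPM in WT mock. One mock library lay among the DTT values, and the change of 0.81 ± 0.29 passed narrowly (adjusted p = 0.0485). That call did not hold without WT DTT 1 or 3 or WT mock 1 or 3 (0.49 to 0.77, adjusted p up to 0.325), nor without the filter on low counts, with a replicate block, with DESeq2 or with only these 6 libraries fitted.

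AOX1A had 128, 94.3 and 169.8 CPM in WT DTT, against 53.5, 38.7 and 42.9 CPM in WT mock. Every DTT library was above every mock library, a 2.88-fold rise (1.52 ± 0.20, adjusted p = 1.25e-07). OM66, an AAA-type protein of the outer mitochondrial membrane, had 39.1, 31.6 and 42.9 CPM in WT DTT, against 8.52, 11.8 and 3.90 CPM in WT mock. It rose 4.79-fold without overlap (2.26 ± 0.40, adjusted p = 8.29e-05). The cytochrome P450 gene CYP81D8 had 21.3, 22.6 and 19.1 CPM in WT DTT, against 4.26, 6.22 and 2.23 CPM in WT mock. That is a 5.06-fold rise without overlap (2.34 ± 0.34, adjusted p = 5.83e-07).

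UGT74E2 encodes a glucosyltransferase that acts on the auxin precursor indole-3-butyric acid. It had 20.2, 38.8 and 25.4 CPM in WT DTT, against 14.6, 10.4 and 7.25 CPM in WT mock. The groups did not overlap (1.39 ± 0.44, adjusted p = 0.0299), but the call did not hold without WT DTT 2 or 3 or WT mock 2 or 3 (1.07 to 1.45, adjusted p up to 0.172). UPOX, named for its rise in oxidative stress, had 5.93, 1.29 and 5.56 CPM in WT DTT, against 3.04, 0 and 2.79 CPM in WT mock. These are 2 to 10 counts against 0 to 5, the groups overlap, and the difference of 1.03 ± 0.61 did not pass (adjusted p = 0.274).

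Markers of root moved with the same libraries. The 8 root genes, picked with earlier results of these data known, summed to 9.5 to 17.4 CPM in WT DTT, against 157.5 to 194.1 CPM in WT mock, all 8 fell, and AT5G54370 was at 0 counts in WT DTT. The share of all tested genes that fell in WT DTT is not given here. In whole seedlings fewer cells of a type and less RNA per cell cannot be told apart. The part of the root markers in the members' changes was not tested.

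AZC also raised members. In WT AZC 4 of 8 rose and 0 fell, while 3.23% of all tested genes rose. The members' median was 0.85, against 0.00 over all tested genes, and 6 values were positive. UPOX, CYP81D8, OM66 and AOX1A rose, and none of the NAC factors passed.

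UPOX had 15.6, 9.10 and 14.1 CPM in WT AZC, against 3.04, 0 and 2.79 CPM in WT mock. Its lowest AZC library was above its highest mock library, a 6.26-fold rise (2.65 ± 0.48, adjusted p = 0.000127). CYP81D8 had 26.9, 16.1 and 24.2 CPM in WT AZC, against 4.26, 6.22 and 2.23 CPM in WT mock, and rose 5.43-fold (2.44 ± 0.33, adjusted p = 3.32e-07). OM66 had 22.6, 35.7 and 38.3 CPM in WT AZC, against 8.52, 11.8 and 3.90 CPM in WT mock, and rose 4.03-fold (2.01 ± 0.41, adjusted p = 0.00127). For both genes AZC and mock did not overlap.

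AOX1A moved least of the 4. It had 73.1, 80.5 and 73.1 CPM in WT AZC, all above the 53.5, 38.7 and 42.9 CPM of WT mock (0.74 ± 0.21, adjusted p = 0.0229). The call did not hold without WT AZC 2 or 3 or WT mock 2 or 3 (0.66 to 0.76, adjusted p up to 0.113). UGT74E2 had 16.1, 25.2 and 21.5 CPM in WT AZC, also above every mock library, and did not pass (0.95 ± 0.46, adjusted p = 0.301). ANAC102 had 246, 246 and 315 CPM in WT AZC, within the mock range (-0.07 ± 0.22, adjusted p = 0.921). ANAC032 had 18.3, 18.2 and 8.72 CPM, overlapping mock (0.31 ± 0.30, adjusted p = 0.676). The root markers summed to 51.7 to 69.3 CPM in WT AZC, 6 of 8 fell, and their part was not tested. Of all 10480 tested genes 570 passed in WT AZC in either direction.

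With Tm the members split. In WT Tm 1 of 8 rose, AOX1A, and 1 fell, ANAC102, while 8.65% of all tested genes rose and 8.13% fell. These shares are near those of any gene. The members' median was -0.43, against 0.02 over all tested genes. ANAC102 had 209.6, 111 and 69.4 CPM in WT Tm, against 327, 314 and 205 CPM in WT mock. Its highest Tm library lay just above its lowest mock library, and the fall was 2.19-fold (-1.13 ± 0.23, adjusted p = 0.000818). It passed with each of the 6 libraries left out, at -0.81 without WT Tm 3 and -1.68 without WT Tm 1, but not with only these 6 libraries fitted (adjusted p = 0.0769).

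AOX1A had 81.7, 111 and 47.4 CPM in WT Tm, against 53.5, 38.7 and 42.9 CPM in WT mock. One Tm library lay inside the mock range (0.80 ± 0.21, adjusted p = 0.00618). Without WT Tm 2 the value was 0.48 (adjusted p = 0.157), with a spread per group 0.71 (adjusted p = 0.108) and with only these libraries 0.80 (adjusted p = 0.157), so this call rests on 1 library and on the spread borrowed from the other groups. ANAC032 had 8.47, 3.96 and 8.81 CPM in WT Tm, overlapping mock (-0.74 ± 0.35, adjusted p = 0.147), and passed only without WT mock 3 (-1.09, adjusted p = 0.0314). UGT74E2 had 7.70, 0 and 4.96 CPM in WT Tm, overlapping mock by 1 library (-1.29 ± 0.63, adjusted p = 0.168). OM66 had 6.93, 4.75 and 3.31 CPM (-0.69 ± 0.59), CYP81D8 3.85, 4.75 and 6.61 CPM (0.34 ± 0.44) and UPOX 4.62, 3.96 and 2.20 CPM (0.74 ± 0.64) in WT Tm, and these 3 did not pass. The root markers summed to 131.5 to 156.4 CPM in WT Tm, against 157.5 to 194.1 CPM in WT mock, and 3 of 8 fell, while 8.13% of all tested genes did.

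**Figure D3:**
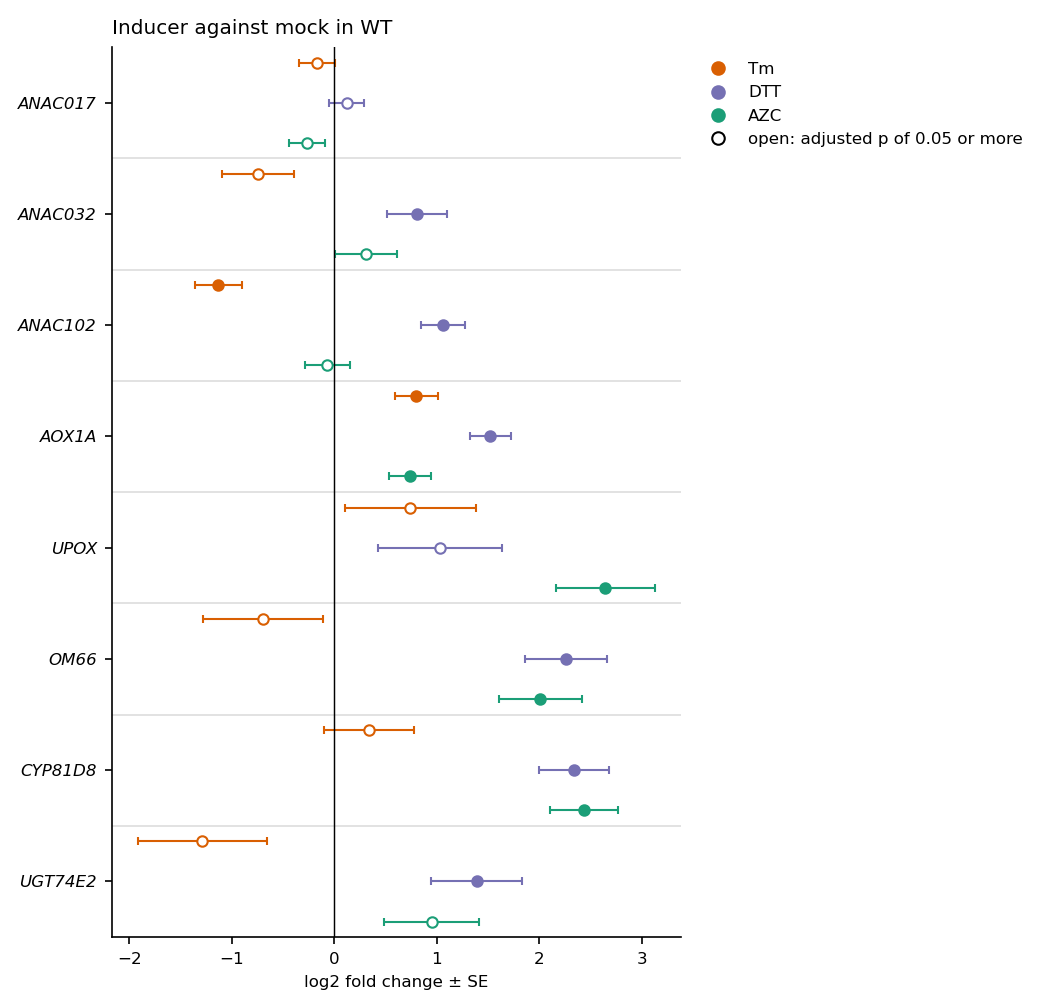
Log2 fold change ± SE (horizontal axis) of each tested member in WT Tm, WT DTT and WT AZC against WT mock, with filled points at an adjusted p under 0.05. OM66 and CYP81D8 lie between 2.01 and 2.44 with DTT and AZC and between -0.69 and 0.34 with Tm.

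The agents were then set against each other directly. WT Tm was lower than WT DTT in 6 of 8 members, while 11.8% of all tested genes were lower, and higher in 0. The differences were -2.95 ± 0.45 for OM66 (7.73-fold lower, adjusted p = 9e-06), -2.68 ± 0.54 for UGT74E2, -2.19 ± 0.23 for ANAC102 (adjusted p = 1.41e-08), 4.00-fold lower for CYP81D8 (adjusted p = 9.04e-06), -1.55 ± 0.33 for ANAC032 and -0.73 ± 0.19 for AOX1A. WT Tm and WT DTT did not overlap for the first 5 of these, but the share of all tested genes without overlap was not counted. AOX1A overlapped, and its call did not hold without WT Tm 3 (-0.44, adjusted p = 0.0844), without WT DTT 3 (-0.52, adjusted p = 0.0605) or with only these libraries. The UGT74E2 call did not hold with a spread per group (-3.29, adjusted p = 0.0593). UPOX (-0.29 ± 0.56) did not pass.

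WT Tm was also lower than WT AZC in 6 of 8 members, while 9.01% of all tested genes were lower. These were OM66 (-2.70 ± 0.46), UGT74E2 (-2.24 ± 0.56), CYP81D8 (-2.10 ± 0.33, adjusted p = 3.97e-06), UPOX (-1.90 ± 0.45), ANAC102 (-1.07 ± 0.23) and ANAC032 (-1.06 ± 0.34). With a spread per group 3 of these 6 passed, and UPOX (adjusted p = 0.125), UGT74E2 (adjusted p = 0.139) and ANAC032 (adjusted p = 0.283) did not. With only these libraries fitted, ANAC102 (adjusted p = 0.0678) and ANAC032 (adjusted p = 0.135) did not pass. ANAC032 also did not hold without WT Tm 2 or WT AZC 1 or 2 (-0.95 to -0.83, adjusted p up to 0.136). AOX1A did not pass for WT Tm against WT AZC, at 0.06 ± 0.20 (adjusted p = 0.883). Both contrasts use the same 3 WT Tm libraries.

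DTT and AZC differed at 3 members. WT DTT was above WT AZC for ANAC102 (1.13 ± 0.22, adjusted p = 0.000298) and AOX1A (0.78 ± 0.19, adjusted p = 0.0025), 2 of 8, while 9.33% of all tested genes were higher. It was lower for UPOX (-1.61 ± 0.43, adjusted p = 0.00527), 1 of 8, while 7.92% were lower. The libraries of the 2 groups did not overlap for any of the 3, and here too the share over all tested genes was not counted. AOX1A did not hold without WT DTT 3 (0.56, adjusted p = 0.0549), nor UPOX without WT DTT 2 (-1.18, adjusted p = 0.0617). OM66 (0.25 ± 0.32) and CYP81D8 (-0.10 ± 0.25) did not pass, and neither did UGT74E2 (0.44 ± 0.40) or ANAC032 (0.49 ± 0.28).

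Without any agent, members were already high in bzip17/28. In bzip17/28 mock 4 of 8 members were higher than in WT mock and 0 lower, while 8.98% of all tested genes were higher. The members' median was 0.84, against 0.00 over all tested genes, and all 8 values were positive. The 4 were genes of the response, UPOX, OM66, CYP81D8 and UGT74E2. The NAC factors and AOX1A did not pass.

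CYP81D8 had 12.8, 13.2 and 13.5 CPM in bzip17/28 mock, against 4.26, 6.22 and 2.23 CPM in WT mock. The groups did not overlap (1.67 ± 0.35, adjusted p = 0.000468). OM66 had 22.6, 29.7 and 28.3 CPM in bzip17/28 mock, against 8.52, 11.8 and 3.90 CPM in WT mock. It was 3.41-fold higher, again without overlap (1.77 ± 0.40, adjusted p = 0.00201). UPOX had 8.86, 5.77 and 6.96 CPM in bzip17/28 mock, against 3.04, 0 and 2.79 CPM in WT mock (1.78 ± 0.51, adjusted p = 0.0109). It did not hold without WT mock 2, the library with 0 counts (1.30, adjusted p = 0.0758). UGT74E2 had 18.2, 26.0 and 32.2 CPM in bzip17/28 mock, against 14.6, 10.4 and 7.25 CPM in WT mock (1.25 ± 0.43, adjusted p = 0.0411). It did not hold without WT mock 2 or 3 or bzip17/28 mock 2 or 3 (1.02 to 1.25, adjusted p up to 0.187).

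AOX1A had 65.6, 58.5 and 58.8 CPM in bzip17/28 mock, all above the 53.5, 38.7 and 42.9 CPM of WT mock, and did not pass (0.43 ± 0.21, adjusted p = 0.147). The root markers did not fall in bzip17/28 mock, at 194.1 to 210.9 CPM, and 0 of 8 passed. Reads on no feature were 2.74 to 2.78% in bzip17/28 mock, against 4.01 to 4.49% in WT mock. The labels give no batch, so a batch of libraries and the genotype cannot be told apart in any comparison of a mutant with WT.

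In the other mutants 1 difference passed. UPOX was higher in s1p/s2p mock, at 9.85, 8.74 and 6.80 CPM, against 3.04, 0 and 2.79 CPM in WT mock (2.01 ± 0.51, adjusted p = 0.00946), 1 of 8 members, while 2.82% of all tested genes were higher. That call too did not hold without WT mock 2 (1.52, adjusted p = 0.061). CYP81D8 had 10.4, 7.57 and 7.25 CPM in s1p/s2p mock, above every WT mock library, without passing (1.02 ± 0.38, adjusted p = 0.0971). The root markers summed to 71.1 to 83.0 CPM in s1p/s2p mock, 3 of 8 were lower than in WT mock, and their part was not tested. Of all 10480 tested genes 457 were lower there.

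In bzip28/60 mock 0 of 8 members passed, while 5.04% of all tested genes did. At an unadjusted p under 0.05 there were 2 members in the fit with TMM factors. The count over all genes is given only for scaling by library size alone, 2080 of 10480. That is another fit, so the 2 members are not read against it. DESeq2 called 1 member. That member was UGT74E2, which in the libraries labelled bzip28/60 mock had 3.13, 2.91 and 2.09 CPM, all below the 14.6, 10.4 and 7.25 CPM of WT mock (-1.95 ± 0.62, adjusted p = 0.0612, and 0.00885 with DESeq2). It also passed without the filter on low counts and with only these libraries fitted. In bzip17/60 mock 0 of 8 passed, while 8.01% of all tested genes did, with 0 at an unadjusted p under 0.05 and 0 called by DESeq2. Its values lay between -0.45 ± 0.52 for UGT74E2 and 0.96 ± 0.58 for UPOX.

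**Figure D4:**
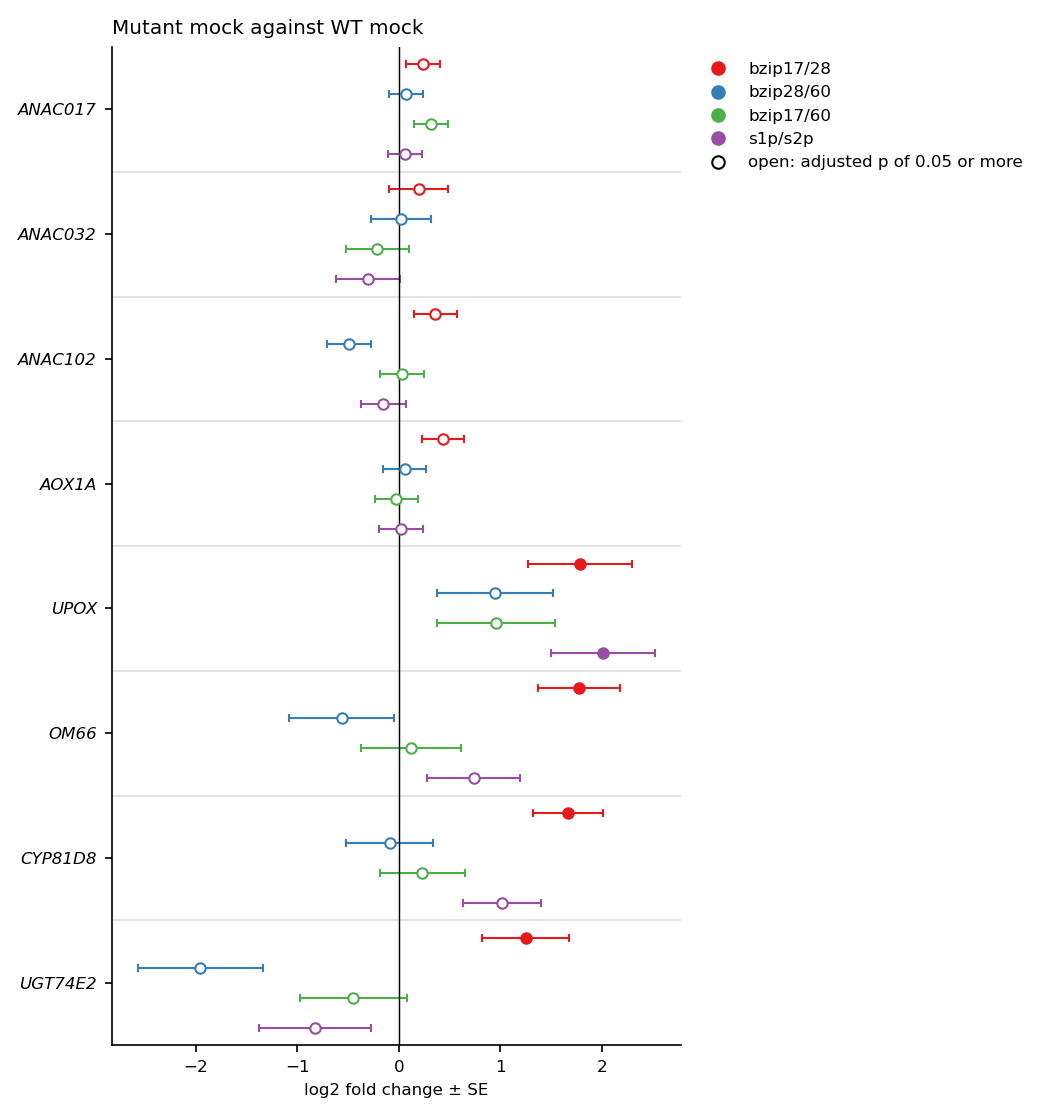
Log2 fold change ± SE (horizontal axis) of each tested member in the mock libraries of 4 double mutants against WT mock, with filled points at an adjusted p under 0.05. The 4 filled points of bzip17/28 lie between 1.25 and 1.78, and the filled point of s1p/s2p, UPOX, at 2.01.

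Tm within the mutants moved few members. In bzip17/28 Tm 1 of 8 rose, AOX1A, while 4.56% of all tested genes rose. It had 93.2, 119.4 and 91.9 CPM in bzip17/28 Tm, against 65.6, 58.5 and 58.8 CPM in bzip17/28 mock, without overlap (0.74 ± 0.19, adjusted p = 0.00447). Without bzip17/28 Tm 2 it was 0.61 (adjusted p = 0.0537). UPOX, CYP81D8 and UGT74E2, which were high in bzip17/28 mock, did not pass with Tm (-0.04 ± 0.37, 0.26 ± 0.25 and 0.20 ± 0.35), and neither did OM66 (0.64 ± 0.29, adjusted p = 0.188).

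In bzip28/60 Tm 1 of 8 rose, UGT74E2, while 0.840% of all tested genes rose. The libraries labelled bzip28/60 had 17.5, 6.56 and 12.3 CPM of it with Tm, against 3.13, 2.91 and 2.09 CPM with mock, without overlap (2.16 ± 0.57, adjusted p = 0.0337). The call held without bzip28/60 Tm 2 and did not hold without any other of the 6 libraries (1.79 to 2.29, adjusted p up to 0.243). ANAC102 had 304, 272 and 260.2 CPM in bzip28/60 Tm, against 182, 179 and 240 CPM in bzip28/60 mock. These did not overlap (0.48 ± 0.22, adjusted p = 0.372), and the difference passed with only these libraries (adjusted p = 0.00286) and with a spread per group (adjusted p = 0.0377).

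In s1p/s2p Tm 0 of 8 passed, while 3.55% of all tested genes did, and DESeq2 called 0. At an unadjusted p under 0.05 there were 2 members. The share of all tested genes at that threshold is not given here, so these 2 are not read as an excess. AOX1A had 67.6, 74.5 and 66.4 CPM in s1p/s2p Tm, all above the 49.3, 46.0 and 42.6 CPM of s1p/s2p mock (0.60 ± 0.20, adjusted p = 0.0937), and passed without the filter on low counts, with only these libraries and with a spread per group (adjusted p of 0.0108 to 0.0364). OM66 had 28.1, 35.5 and 16.7 CPM in s1p/s2p Tm, against 20.7, 13.4 and 5.89 CPM in s1p/s2p mock (1.06 ± 0.35, adjusted p = 0.105). It passed without s1p/s2p Tm 3 (1.27, adjusted p = 0.0425) and without s1p/s2p mock 1 (1.57, adjusted p = 0.0165). In bzip17/60 Tm 0 of 8 passed, while 3.07% of all tested genes did, with 0 at an unadjusted p under 0.05 and 0 called by DESeq2. AOX1A had 36.4, 54.6 and 38.3 CPM in bzip17/60 Tm, against 37.6, 48.2 and 47.0 CPM in bzip17/60 mock (-0.03 ± 0.21). Root markers fell with Tm in each mutant, 4 of 8 in bzip17/28, 2 in bzip28/60, 3 in bzip17/60 and 3 in s1p/s2p, where they summed to 27.6 to 42.6 CPM with Tm, against 71.1 to 83.0 CPM with mock. Of all 10480 tested genes 162 fell in bzip28/60 Tm and 214 in bzip17/60 Tm. The number that fell in bzip17/28 Tm and in s1p/s2p Tm is not given here. The part of the root markers in the members' values was not tested.

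Whether Tm acted otherwise in a mutant than in WT was tested as the difference of the 2 Tm responses. ANAC102 was higher in 3 of the 4 mutants on that measure. The difference was 1.61 ± 0.32 for bzip28/60 (adjusted p = 0.00243), 1.42 ± 0.31 for s1p/s2p (adjusted p = 0.0182) and 1.16 ± 0.31 for bzip17/28 (adjusted p = 0.028). For bzip17/60 it was 0.71 ± 0.32 (adjusted p = 0.211). The libraries behind these values are 389.5, 378 and 342 CPM in bzip17/28 Tm against 314, 381 and 389.6 in bzip17/28 mock, and 309, 341 and 277 CPM in s1p/s2p Tm against 267, 255 and 239 in s1p/s2p mock. For bzip17/60 they are 198, 236 and 208 CPM with Tm, against 267, 246 and 351 with mock. Tm against mock passed for ANAC102 in WT and in 0 of the 4 mutants, and all 4 differences use the same 6 WT libraries.

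UGT74E2 differed for bzip28/60, at 3.45 ± 0.85 (adjusted p = 0.017). It did not hold without WT mock 1 (3.15, adjusted p = 0.0613) or bzip28/60 Tm 1 (3.09, adjusted p = 0.0533), nor with a spread per group (3.94, adjusted p = 0.109). In all, 1 of 8 members was higher for bzip17/28, while 1.86% of all tested genes were, 2 of 8 for bzip28/60, while 1.97% were, and 1 of 8 for s1p/s2p, while 1.16% were. For bzip17/60 0 of 8 passed with edgeR, while 3.72% of all tested genes did, and DESeq2 called 0. At an unadjusted p under 0.05 there were 3 members for bzip17/60 in the fit with TMM factors. Over all genes the count is given only for scaling by library size alone, 1986 of 10480. That is another fit, so the 3 members are not read against it. AOX1A was at -0.83 ± 0.30 there (adjusted p = 0.105), and passed without WT Tm 3 (-1.12, adjusted p = 0.0131), while ANAC102 passed without WT Tm 1 (1.26, adjusted p = 0.00077).

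The ANAC102 calls were not equally stable. For bzip17/28 the call did not hold without WT Tm 2 or 3, WT mock 1 or 2, bzip17/28 Tm 1 or 2 or bzip17/28 mock 1 or 2 (0.84 to 1.21, adjusted p up to 0.0988). For s1p/s2p it did not hold without WT Tm 2, WT mock 1 or 2 or s1p/s2p Tm 2 (1.31 to 1.36, adjusted p up to 0.0744). For bzip28/60 it held with each of the 12 libraries left out. With only the libraries of the comparison fitted, 0 of the 3 passed (adjusted p of 0.0668 to 0.193).

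**Figure D5:**
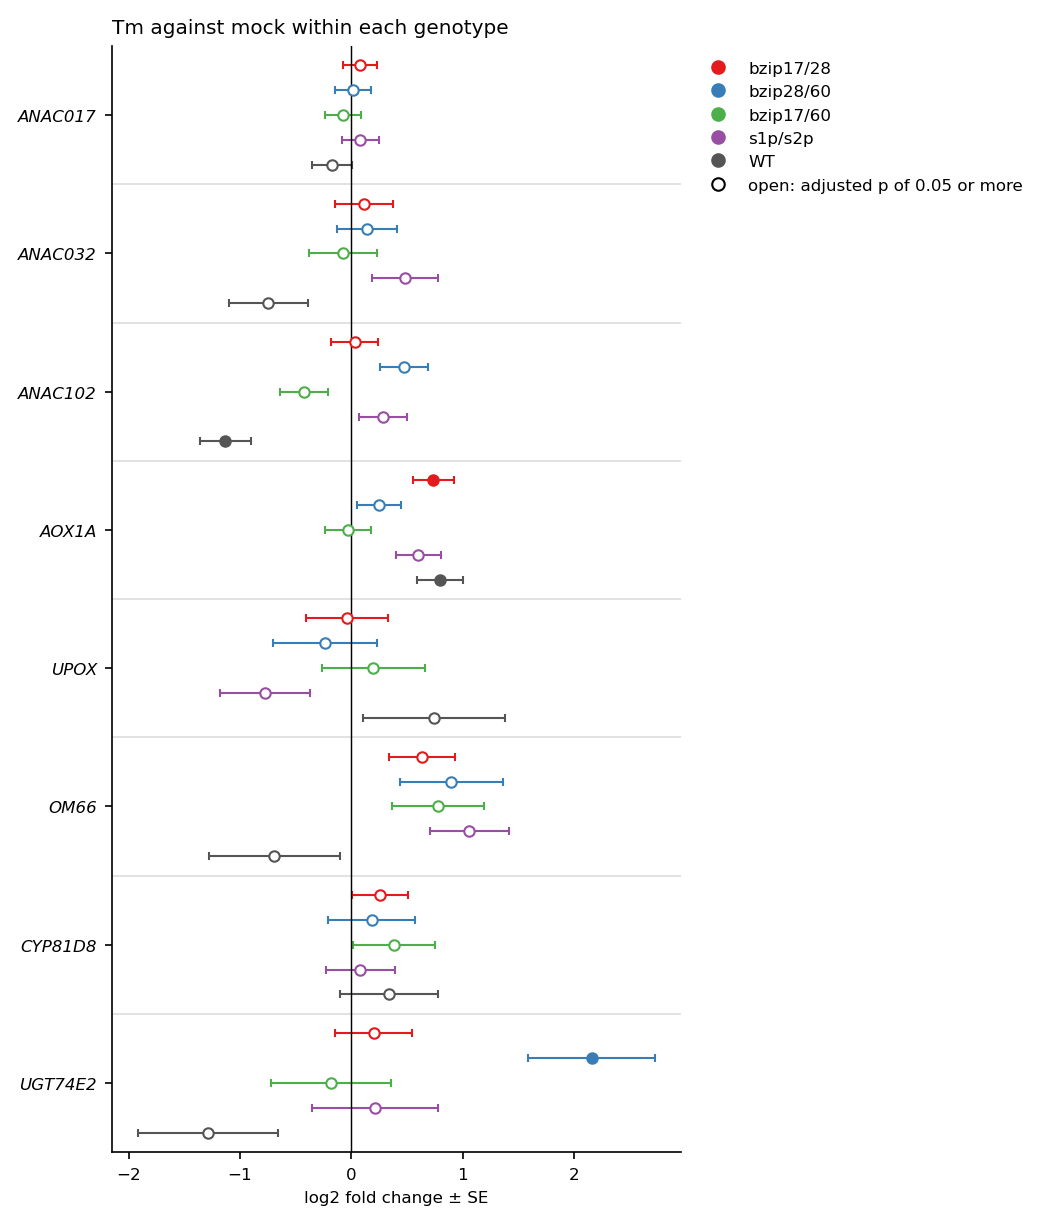
Log2 fold change ± SE (horizontal axis) of Tm against mock in 4 double mutants and WT, with filled points at an adjusted p under 0.05. ANAC102 lies at -1.13 in WT and between -0.43 and 0.48 in the mutants, and UGT74E2 at 2.16 in bzip28/60.

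ANAC013 and NDB4 could not be followed. ANAC013 had 0 counts in all 36 libraries. A count of 0 allows up to 3 counts, 1.07 to 2.35 CPM per library, for counting error only. The files count 3 models of ANAC013 separately. Whether reads that overlap several of them were left uncounted is not stated in the labels, and if so the limit covers only reads unique to 1 model. Of the 2475 loci with 3 models, 24.0% were at 0 in every library, and of the loci with 1 model 43.6% were. These loci were not matched in level or gene class, and a loss of ANAC013 reads was not tested. NDB4, with 1 model, had 22 counts in all 36 libraries together. In s1p/s2p mock it had 2, 4 and 3 counts, against 1, 0 and 0 counts in WT mock. Without the filter on low counts the difference was 2.60 ± 1.31 and did not pass (adjusted p = 0.419).

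Some members may share reads with relatives. The last 400 bases of UGT74E2 matched AT1G05675 at 92.6% over 217 bases, those of NDB4 matched AT4G05020 at 89.1% over 101 bases and those of AOX1A matched AT3G22360 (AOX1B) at 89.9% over 69 bases. ANAC102 overlaps AT5G63780 on the opposite strand by 85 bases. With the strand setting of the counting not given, reads of the 2 genes there cannot be told apart.

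The order of levels was not the same for all members. ANAC102 had its highest mean in WT DTT (586.8 ± 78.2 CPM, SD, n = 3), above the range of the next group, bzip17/28 Tm (369.8 CPM), and its lowest in WT Tm (130.0 CPM). AOX1A was highest in WT DTT (130.7 CPM) and lowest in bzip17/60 Tm (43.1 CPM). UPOX was highest in WT AZC (12.9 CPM) and lowest in WT mock (1.94 CPM), a 6.65-fold range. OM66 was highest in bzip17/28 Tm (41.6 CPM) and lowest in WT Tm (5.00 CPM), and CYP81D8 highest in WT AZC (22.4 CPM) and lowest in bzip28/60 mock (3.91 CPM). UGT74E2 had the widest range, 10.7-fold, between 29.0 CPM in bzip17/28 Tm and 2.71 CPM in bzip28/60 mock. ANAC032 ran between 21.6 CPM in WT DTT and 7.08 CPM in WT Tm. Of the 11 steps between neighbours in each order, 2 had no overlap for ANAC102, 1 each for AOX1A, OM66 and CYP81D8, and 0 for ANAC017, ANAC032, UPOX and UGT74E2. Such steps were not counted for other genes.

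Over the 12 group means of log2 CPM, which share their libraries and depth, the closest pairs of members were OM66 with CYP81D8 (Pearson correlation 0.91) and ANAC032 with ANAC102 (0.90). AOX1A ran at 0.75 with CYP81D8 and 0.67 with OM66, but at 0.22 with UPOX. ANAC017 ran at -0.10 with AOX1A and with UPOX. Of the closest pair, CYP81D8 holds the motif in the window and OM66 does not. Outside the set, the genes closest to the mean profile of the 8 members were AT5G20000 (0.98), the heat shock factor gene HSF4 (0.96), AT1G73810 (0.96), ATAF2 (0.95) and HEMA2 (0.94). Closest to AOX1A were WRKY33 (0.97), AT3G09020 (0.96) and AT1G23710 (0.95). By Spearman correlation 2 of these 5 and 0 of these 3 were again among the closest.

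Other genes of the pathway were counted from lists. Of 12 other genes known to rise in mitochondrial dysfunction 9 were tested. In WT DTT 2 of the 9 rose (8.93% of all tested genes), AT2G32020 (1.92 ± 0.28) and the sulfotransferase gene SOT12 (1.35 ± 0.25), and 0 fell. In WT AZC 4 of the 9 rose (3.23% of all) and 0 fell, led by AT5G51440, a mitochondrial small heat shock protein gene (4.18 ± 0.21, adjusted p = 1.54e-20), and AT2G41730 (2.44 ± 0.28). In WT Tm 0 rose and 2 of the 9 fell (8.13% of all), AT5G51440 (-2.19 ± 0.35) and DTX1 (-1.58 ± 0.57). In bzip17/28 mock 4 of the 9 were higher than in WT mock (8.98% of all) and 0 lower, led by SOT12 (1.69 ± 0.24) and AT2G41730 (1.26 ± 0.30). The list's medians were 0.98 in WT DTT, 0.44 in WT AZC, -0.02 in WT Tm and 1.26 in bzip17/28 mock. AT5G51440 also differed in its Tm response, higher than in WT by 1.60 ± 0.44 for bzip17/28, 2.28 ± 0.46 for bzip28/60 and 2.20 ± 0.44 for bzip17/60. In bzip28/60 mock it was already lower than in WT mock (-1.07 ± 0.27, adjusted p = 0.0136), and that lower start enters the difference for bzip28/60.

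The other ATAF-group factors, ATAF2 (1.44 ± 0.21) and ATAF1 (0.79 ± 0.20), both rose in WT DTT, while 8.93% of all tested genes did. In WT AZC and in WT Tm 0 of the 2 passed, while 3.23% and 8.65% of all tested genes rose. Of 13 other membrane-bound NAC factors 2 were tested. TIP, 1 of these 2, rose in WT DTT (1.97 ± 0.23), in WT Tm (0.70 ± 0.23), in bzip17/28 Tm (1.77 ± 0.22) and in s1p/s2p Tm (1.31 ± 0.22). Of all tested genes 8.93% rose in WT DTT, 8.65% in WT Tm and 4.56% in bzip17/28 Tm. In s1p/s2p Tm 3.55% passed in either direction. Of 11 other regulators of retrograde signalling 5 were tested. In WT DTT 2 of the 5 rose (8.93% of all), WRKY40 (2.103 ± 0.316) and RRTF1 (2.31 ± 0.64). WRKY40, as 1 of the 5, also rose in bzip17/28 Tm (1.02 ± 0.25) and s1p/s2p Tm (1.69 ± 0.33). It was also higher in bzip17/28 mock than in WT mock (0.93 ± 0.34), while 8.98% of all tested genes were. Of 9 other alternative oxidase and dehydrogenase genes 3 were tested. In WT AZC 1 of the 3 rose (3.23% of all), NDA1, an internal NAD(P)H dehydrogenase (0.58 ± 0.16, adjusted p = 0.0175).

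Of 8 detoxification genes 6 were tested. In WT Tm 3 of the 6 fell (8.13% of all tested genes) and 0 rose, with the glutathione transferase GSTU24 (-0.88 ± 0.28) and CYP81D11 (-1.48 ± 0.47) as examples, while in WT DTT 1 of the 6 rose (8.93% of all), GSTU24 (1.79 ± 0.24). In bzip17/28 mock 3 of the 6 were higher than in WT mock (8.98% of all), led by CYP81D11 (1.62 ± 0.33) and GSTU24 (1.03 ± 0.23). Of 24 genes of the respiratory chain and the mitochondrial carriers 16 were tested. In WT Tm 6 of the 16 rose (8.65% of all), among them COX6B (0.81 ± 0.17) and the complex I gene CI51 (0.82 ± 0.17), and the adenine nucleotide carrier AAC3 fell (-0.91 ± 0.25). In WT DTT 3 of the 16 rose (8.93% of all), among them the cytochrome c gene CYTC-2 (0.89 ± 0.20), and in WT AZC 1 of the 16 rose (3.23% of all), again CYTC-2 (1.10 ± 0.20). In bzip17/28 mock 5 of the 16 were higher than in WT mock (8.98% of all), among them SDH1-1 of succinate dehydrogenase (0.97 ± 0.17), and VDAC3, a porin of the outer membrane, was lower (-1.20 ± 0.27). SDH1-1 was also higher and VDAC3 lower in bzip17/60 mock (0.57 ± 0.17 and -1.02 ± 0.27) and in s1p/s2p mock (0.52 ± 0.17 and -0.95 ± 0.27).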

How the data were processed

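The authors deposited whole-number counts per transcript model, 58699 models of 37336 loci, for each of 36 libraries of 3'-end RNA sequencing. Per the submitters' processing notes they used TopHat2 2.1.1 and HTSeq 0.6.0, with Trim Galore 0.2.8 and SAMtools. The sources used here do not give the genome build, annotation or strandedness of counting. Of the models 97.3% are named in the RefSeq TAIR10.1 annotation, as are 13 of the 13 models of the members, which is why TAIR10.1 was read for coordinates and sequences. No protein or promoter table was used. HTSeq's ambiguous class, meant for reads that overlap several counted features, held 39.9 to 42.8% of assigned and ambiguous reads, and 2.69 to 6.32% of these and unassigned reads fell on no feature. Neither entered the tests. Loci with several models may lose reads this way, and 91.1 to 93.6% of counts come from the 26319 loci with 1 model.

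Counts were summed per locus and filtered with edgeR's filterByExpr (minimum count 10). One edgeR 4.0.16 model in R 4.3.3 held all 36 libraries (TMM factors, robust quasi-likelihood test with 24 residual degrees of freedom). P-values were adjusted over the 10480 loci tested in each of 18 comparisons. Correlations used group means of log2 CPM with a prior count of 2.

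The members, the comparisons and the gene lists were chosen with earlier results of these data known. All 10 members are named. Of each list the counts are given and at most the 2 genes of lowest p in each direction. Genes most like the members are the 5 with the highest correlation to their mean profile, and the 3 with the highest to AOX1A, among genes with a mean of 5 CPM. Targeted genes and root and shoot markers are named as checks.

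Alternatives were a spread per group (limma 3.58.1), DESeq2 1.42.0, a fit restricted to the compared libraries, a replicate block, each library left out, scaling by library size alone or by relative log expression, testing without the filter, leaving out organelle loci, and testing models one by one or the first model of each locus. A motif window of 250 bases was added after seeing the data.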

Additional observations from a re-analysis of the deposited data

Results flagged for a closer look

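In 4 cases the Tm response of a member differed between a mutant and WT by the test of the difference itself. ANAC102 differed for bzip28/60 by 1.61, for s1p/s2p by 1.42 and for bzip17/28 by 1.16 on the log2 scale, each higher in the mutant. UGT74E2 differed for bzip28/60 by 3.45, also higher in the mutant, but with a spread per group it did not pass (3.94, adjusted p = 0.109). The UGT74E2 response in WT rests on 10, 0 and 9 counts in WT Tm, against 24, 15 and 13 counts in WT mock. Its mean was 2.71 CPM in bzip28/60 mock, against 10.7 CPM in WT mock, and that lower start enters the difference for bzip28/60. All 4 use the WT Tm libraries, which varied more than those of the other groups, and the part of that spread in the differences was not tested.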

How the results depend on the processing

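No fold change of a member that passed turned its sign under these alternatives, while values that did not pass could, such as CYP81D8 in WT Tm (-0.01 without WT mock 3). With only the libraries of a comparison fitted, the members changed numbered 0 for WT Tm (2 in the fit of all libraries), 2 for bzip28/60 Tm (1), 1 for s1p/s2p Tm (0), 1 for bzip28/60 mock (0), and for the differences of Tm response 0 for bzip17/28 (1), 1 for bzip28/60 (2) and 0 for s1p/s2p (1). With a spread per group they numbered 1 for WT Tm, 3 for WT Tm against WT AZC (6), 2 for bzip28/60 Tm, 2 for s1p/s2p Tm and 1 for the difference of bzip28/60. Without the filter on low counts they numbered 2 for s1p/s2p Tm, 1 for bzip28/60 mock and 2 for the difference of s1p/s2p. With DESeq2 they numbered 1 for bzip28/60 mock and 1 for the difference of bzip28/60, where it gave UGT74E2 no adjusted p. The cause of these shifts was not tested. With libraries left out one at a time, the counts ran from 1 to 3 for WT Tm, 4 to 5 for WT DTT, 0 to 1 for Tm in bzip17/28, bzip28/60 and s1p/s2p, 2 to 4 for bzip17/28 mock, 0 to 1 for s1p/s2p mock, and for the differences 0 to 1 for bzip17/28 and bzip17/60, 1 to 2 for bzip28/60 and 0 to 2 for s1p/s2p. Deviations of same-numbered libraries correlated at -0.15 to 0.198, and in no comparison were all 3 over 0.1. For WT DTT against WT mock they were -0.0232, 0.189 and 0.198 for repeats 1, 2 and 3. The main fit therefore held no pairing by repeat number, but with 3 libraries per group these values cannot show that repeats shared nothing. With a replicate block 5 members rose in WT DTT (6 without it) and no other count of members changed. Other settings moved calls over all genes by more than 1.5 times, for WT Tm between 262 and 551 against 1759, for WT Tm against WT DTT between 811 and 1096 against 2500, for WT Tm against WT AZC between 472 and 677 against 1919 and for bzip28/60 Tm between 554 and 732 against 250. The differences of Tm response gave 140 to 206 against 415 for bzip17/28, 118 to 204 against 426 for bzip28/60, 13 to 110 against 390 for bzip17/60 and 12 to 361 against 204 for s1p/s2p. In the leave-outs that moved the count over all genes by more than 1.5 times, it fell to 993 for WT Tm, 1169 for WT Tm against WT AZC, 1200 for WT DTT against WT AZC (1808 with all libraries), 368 for WT AZC (570), 138 to 165 for bzip28/60 Tm, 180 for bzip17/60 Tm (322), 201 to 285 for bzip28/60 mock (528), 390 to 473 for bzip17/60 mock (839) and 429 to 455 for s1p/s2p mock (753). For the differences it lay between 264 and 1078 for bzip17/28, 244 and 1180 for bzip28/60, 140 and 1173 for bzip17/60 and 67 and 974 for s1p/s2p. Scaling by library size alone moved the split of higher and lower genes, to 1333 and 626 for bzip17/28 mock (941 and 915 with TMM, a shift of the median by 0.11), 468 and 330 for s1p/s2p mock (296 and 457), 291 and 268 for bzip28/60 mock (174 and 354), 129 and 117 for bzip28/60 Tm (88 and 162), 138 and 138 for bzip17/60 Tm (108 and 214, a shift of 0.11) and 250 and 150 for the difference of bzip17/60 (184 and 206), with no call of a member changed. UPOX and UGT74E2 had low counts, with 0 in 1 library each, which limits the precision of their values.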
